A study of Mus musculus with 4 samples.

Results

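The genes described here encode the collagens, the triple-helical proteins of the extracellular matrix, and the lysyl oxidases, the enzymes that crosslink them. They were taken as the protein-coding genes of the 2D against 3D table whose symbol is that of a collagen chain or of Lox and Loxl1 to Loxl4. The rule found 48 genes, 43 collagens and 5 lysyl oxidases, among 31828 genes in the table, of which 18623 are protein-coding. Col1a2 has no row in the table and was not analysed here. The rule uses names only, and no measured value.

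RNA was measured in AML12 cells, a mouse hepatocyte line made from a mouse that carried a transgene for human TGF-alpha. The cells were grown as a single layer in dishes (2D) or embedded in Matrigel (3D), a basement membrane extract that itself holds type IV collagen protein. Every library came from cells kept in medium with fetal calf serum, insulin, transferrin, selenium and dexamethasone, and given 1 mM hydroxyurea, which arrests DNA replication. The treatment lasted 24 h in the 2D culture and 36 h in the 3D culture. It began after 24 h of growth in 3D, and in 2D when the cells had reached a set confluence. There were 2 libraries per culture. The effect of culture cannot be told apart from that of the time in hydroxyurea or of the growth before it. Whether the libraries of a culture came from separate dishes is not stated, so the p-values measure only the spread between these libraries, which may be technical.

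A collagen chain is a long repeat of glycine followed by any pair of residues, because only glycine fits at the centre of the triple helix. Fibrillar collagens have a long helix, unbroken or nearly so, and pack into fibrils. Network-forming collagens, chiefly type IV of the basement membrane, have helices with many interruptions and join into sheets. Other collagens bind fibrils (the fibril-associated or FACIT collagens), form beaded filaments (type VI), anchor basement membranes (type VII) or span the cell membrane. The multiplexins, types XV and XVIII, carry sulphated sugar chains in basement membrane zones. Lysyl oxidases turn lysines of collagen and elastin into aldehydes, which then form covalent crosslinks. In liver, fibrillar collagen is known chiefly as a product of stellate cells and fibroblasts.

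The repeat and its interruptions can be read in the genes whose levels the results turn on. The stretches below are coding sequence from GRCm38, printed 5′ to 3′ on the gene's strand, and capitals mark the glycine codons (GGN) that begin a triplet of codons. Col27a1 is shown as the fibrillar gene with the highest mean level, although its helix is shorter than that of the classical fibrillar chains. Col7a1 and Col18a1 stand for the anchoring fibril and multiplexin classes, and Col4a1 and Col4a2 for the network class. The first 3 are single coding exons of 54 bases, coding exon 4 of Col27a1 at chr4:63231792-63231845 on the plus strand, coding exon 48 of Col7a1 at chr9:108967172-108967225 on the plus strand and coding exon 27 of Col18a1 at chr10:77067379-77067432 on the minus strand.
Col27a1: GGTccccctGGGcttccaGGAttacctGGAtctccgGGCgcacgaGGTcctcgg
Col7a1: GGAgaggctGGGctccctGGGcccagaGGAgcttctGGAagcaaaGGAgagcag
Col18a1: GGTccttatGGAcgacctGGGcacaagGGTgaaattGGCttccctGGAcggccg
The stretches of the type IV chains each hold an interruption of the repeat. That of Col4a1 lies at chr8:11235141-11235200 on the minus strand and is broken by 2 extra codons. That of Col4a2 lies at chr8:11415964-11416029 on the plus strand and is broken by 4 extra codons.
Col4a1: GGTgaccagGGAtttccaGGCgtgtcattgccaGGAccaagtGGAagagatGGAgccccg
Col4a2: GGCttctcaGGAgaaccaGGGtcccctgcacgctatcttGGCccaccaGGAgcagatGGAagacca

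Over whole coding sequences the classes differed in the same way. The longest unbroken run of glycine-first triplets was 216 to 344 triplets in the 10 fibrillar genes and 39 to 66 triplets in the 9 network genes. In Col27a1 and Col24a1 it was 217 and 216 triplets, and in the other 8 fibrillar genes 337 or more. Col4a1 had 22 separate runs of at least 5 triplets, with a longest run of 40, and Col4a2 had 24 runs with a longest of 66. Col7a1 had 20 runs, the longest of 75 triplets, and Col18a1 had 14 runs, the longest of 30. No run was found in the 5 lysyl oxidase genes. Of the inner coding exons of the fibrillar genes, 481 of 577 (83.4%) had a length that is a multiple of 9 bases, a whole number of triplets, and 281 (48.7%) were exactly 54 bases long. The share with a multiple of 9 was 47.2% in the network genes and 37.7% in the multiplexins, against 13.7% in all other protein-coding genes of GENCODE M21.

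**Figure D1:**
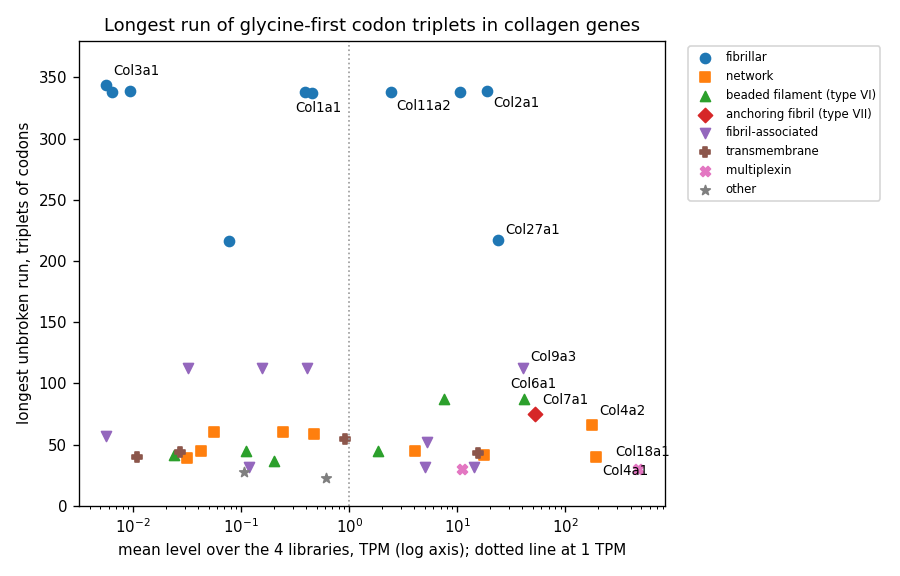
Longest unbroken run of glycine-first codon triplets (y axis, number of triplets) against the mean level over the 4 libraries (x axis, TPM on a log axis) for the 43 collagen genes, with 1 point per gene and a symbol per class. All fibrillar genes lie at 216 triplets or more, and 4 of them, Col27a1, Col2a1, Col11a2 and Col5a1, lie to the right of the dotted line at 1 TPM. The most abundant genes at the right edge, Col18a1, Col4a1 and Col4a2, lie at 30 to 66 triplets.

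Levels are given as TPM, the abundance of a gene's transcripts per unit of length scaled to a fixed total, so that genes can be compared within a library. The depth of the libraries is unknown, since TPM keeps no read counts, and 13891 to 14256 genes reached 1 TPM in each library. The differences between cultures were tested with limma on log2(TPM + 1) over the 14116 genes with a mean of at least 1 TPM, and a gene is said to have risen or fallen in 3D only where the adjusted p-value was under 0.05. Fold changes on that scale are smaller than the ratio of the TPM for genes of low level. Defining markers of other cell types were checked first. Of the stellate cell and fibroblast markers, Pdgfra did not pass 0.0845 TPM in any library, Dcn, Lum and Thy1 did not pass 0.27 TPM, Pdgfrb stayed under 0.766 TPM and Reln did not pass 1.01 TPM. The exception was Des, at 33.7 and 36.1 TPM in 2D and 18.8 and 17.3 TPM in 3D, which fell by 0.91 on the log2 scale (SE 0.07, adjusted p = 0.00122). The summed level of the 8 markers of that list with a row was 35.3 and 38.6 TPM in 2D and 20.3 and 19.3 TPM in 3D, and its part in the results below was not tested. Of the 5 smooth muscle and myofibroblast markers, Acta2 was at 0.279 TPM at most, Myh11 at 0.331 and Cnn1 at 1.93 TPM. Tagln was at 2.63 and 2.29 TPM in 2D and at 1.66 and 1.87 TPM in 3D (adjusted p = 0.0915), and Actg2 fell, from 1.69 and 1.89 TPM in 2D to 1.02 and 1.15 TPM in 3D (adjusted p = 0.0490). The list summed to 5.23 and 6.49 TPM in 2D against 3.73 and 4.02 TPM in 3D, and its part in the results was not tested either. Of the 8 hepatocyte markers, the 5 tested all rose in 3D, where 23.4% of all genes tested rose. Trf (transferrin) went from 18.8 ± 0.655 to 229 ± 3.09 TPM (SD, n = 2 libraries each). Hnf4a went from 57.1 ± 0.663 to 160 ± 5.78 TPM and Ttr from 3.55 ± 0.621 to 84.5 ± 5.07 TPM. Ahsg and Fgb stayed under 0.04 TPM in every library. Apoa2, not tested, was at 0.243 and 0.556 TPM in 2D and at 0 and 0.240 TPM in 3D. The biliary keratins Krt19 (1687 ± 57.0 TPM in 2D and 1200 ± 37.0 TPM in 3D) and Krt7 (492 ± 0.0280 and 313 ± 9.21 TPM) were abundant in both cultures and fell in 3D. Spp1 rose from 152 ± 19.8 to 775 ± 15.1 TPM (log2 fold change 2.35, SE 0.09, adjusted p = 0.000317). Sox9 rose from 15.8 ± 0.853 to 24.8 ± 0.789 TPM (adjusted p = 0.00317). Of the 6 biliary markers 2 rose, 2 fell and 2 were not tested. Of the endothelial markers with a row only Stab1 was tested (9.68 to 18.5 TPM), and of the 6 macrophage and leukocyte markers Cd68 (18.3 to 25.5 TPM) and Lyz2, none of them past the threshold. Ptprc, Adgre1 and Clec4f stayed under 0.3 TPM. In bulk RNA, fewer cells of a type and less RNA per cell cannot be told apart.

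Of the 48 genes, 23 passed the filter on low values and 25 did not. Those tested held 4 fibrillar, 4 network, 3 type VI, 4 fibril-associated, 1 transmembrane and 4 lysyl oxidase genes, with Col7a1 and both multiplexins. In 3D, 4 genes rose (Col18a1, Col27a1, Col15a1 and Col11a2) and 9 fell (Col4a1, Col4a2, Col4a5, Col6a2, Col7a1, Col12a1, Col16a1, Loxl4 and Loxl1). These 13 are 56.5% of the members tested, and among all genes tested 50.5% passed the same threshold. By direction, 39.1% of the members fell against 27.1% of all genes, and 17.4% rose against 23.4% of all genes. The count of 4 that rose was 2 without 2D replicate 1, without 3D replicate 1, without 3D replicate 2, with no filter and at an adjusted p under 0.01. A fold change over 2 as well was found for 4 members, all lower in 3D (Col7a1, Loxl1, Col4a2 and Col12a1), that is 17.4% of those tested against 3.83% of all genes lower and 8.2% of all genes in either direction. Without Loxl1, whose mean in 3D was under 1 TPM, these are 3 of 22, and with a pseudocount of 5 in place of 1 the count was 2. Both libraries of one culture lay above both of the other for 19 of the 23 members (82.6%) and for 77.5% of all genes tested. The median log2 fold change was -0.21 over the members and -0.04 over all genes tested. The members' median was -0.42 without 2D replicate 1, -0.35 without 3D replicate 2 and -0.056 over all 48 genes with no filter. Loxl1 passed the filter only through its level in 2D. Of the 22 members with a mean of at least 1 TPM in both cultures, 12 passed the threshold, 8 of them lower in 3D. No share of all genes under that filter was computed, so neither this count nor the 3 of 22 has one to be set against. With 2 libraries a culture, the smallest p-value of an exact two-sided permutation test is 0.3333, so no gene or sum was tested on its own outside the model over all genes.

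**Figure D2:**
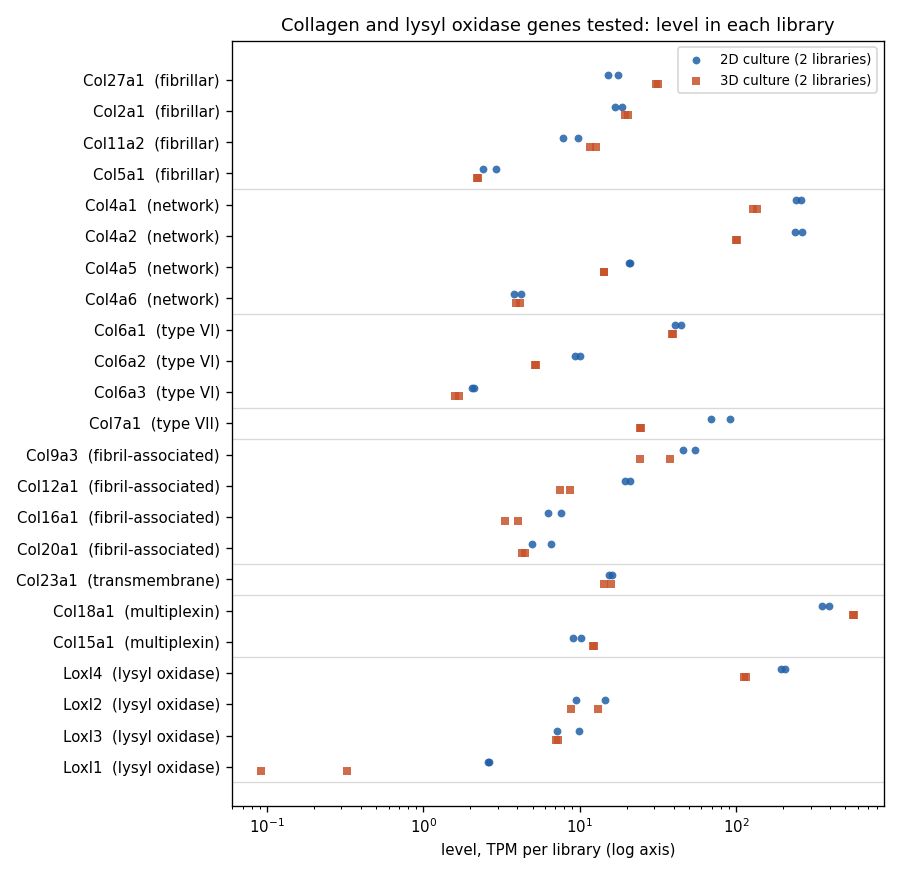
Level of the 23 tested genes in each library (x axis, TPM on a log axis), grouped by class and ordered by mean level, with 2D libraries as circles and 3D libraries as squares. Col18a1 lies at the far right with both 3D libraries above 2D, the type IV chains Col4a1 and Col4a2 lie to the right with 3D below 2D, and Loxl1 in 3D lies furthest to the left, at 0.327 and 0.0922 TPM.

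The network class had the highest summed level of all classes in 2D, and the multiplexins had it in 3D. Col4a1 and Col4a2, chains that assemble together into the common type IV collagen of basement membranes, both fell in 3D. The level of Col4a1 was 242 and 259 TPM in 2D, against 129 and 136 TPM in 3D. The log2 fold change was -0.91 (SE 0.06, adjusted p = 0.000628). Col4a2 was at 240.0 and 265 TPM in 2D and at 100.2 and 101 TPM in 3D, with a log2 fold change of -1.32 (SE 0.06, adjusted p = 0.000385). Neither gene's libraries overlapped between cultures. The chains were at near equal levels in 2D, where the ratio of Col4a1 to Col4a2 was 1.01 and 0.978. In 3D the ratio was 1.29 and 1.35. That ratio is a value within a library, so no scaling of a library changes it. Whether the changes of these chains differ was not tested.

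These genes lie head to head on chromosome 8 of GRCm38, Col4a1 from 11198423 to 11312826 on the minus strand and Col4a2 from 11312805 to 11449287 on the plus strand, and their annotated 5′ ends share 22 bases. The RefSeq promoter table of GRCm38.p6 places their start sites at the same positions. The 30 bases at chr8:11312801-11312830, plus strand, are shown because both genes start there, and capitals mark the 22 shared bases.
Col4a1 and Col4a2 start region: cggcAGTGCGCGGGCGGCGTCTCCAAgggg
The shared bases hold the letters GGGCGG of a GC box. On either strand these letters were present in 22 of the 38 promoter windows matched to 35 of the collagen and lysyl oxidase genes (57.9%) and in 32.7% of all 32851 windows of that table, a description of sequence only. A window is the 250 bases before a start site, so the shared bases lie in neither gene's window. The Col4a2 window held GC boxes of its own, and the Col4a1 window did not. Reads of the overlap itself can be assigned by strand, since the library kit marks the strand and the authors aligned with the strand set.

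The other type IV chains are arranged in the same way, in pairs that point away from each other. Col4a5, on the X chromosome, was at 20.95 and 20.6 TPM in 2D and at 14.4 and 14.3 TPM in 3D. It fell by 0.51 on the log2 scale (SE 0.06, adjusted p = 0.00373). Col4a6, whose 5′ end lies 1308 bases from that of Col4a5, was at 3.82 and 4.25 TPM in 2D and at 4.14 and 3.93 TPM in 3D. Its libraries overlapped between cultures, and the log2 fold change was 0.00 (SE 0.10, adjusted p = 0.990), so that the neighbours in this pair were called differently, although the difference between them was not tested. Col4a3 and Col4a4, whose 5′ ends are 71 bases apart on chromosome 1 and which serve in the filtration barrier of the kidney, did not reach 0.07 TPM in any library. The remaining network genes, Col8a1, Col8a2 and Col10a1, stayed under 0.69 TPM. In sum the network class fell from 529 ± 30.4 TPM in 2D to 252 ± 5.38 TPM in 3D (SD, n = 2 libraries each), and the 2D mean was 2.09 times the 3D mean.

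The multiplexins stood higher in 3D. Col18a1, a heparan sulphate proteoglycan of basement membranes whose C-terminal fragment is endostatin, had the highest level of all 48 genes in both cultures. It lies at 77052178 to 77166548 on chromosome 10, minus strand. It was at 355 and 396 TPM in 2D and at 565 and 570.4 TPM in 3D, with no overlap between cultures. The log2 fold change was 0.60 (SE 0.06, adjusted p = 0.00217). Col15a1, its closest relative, was at 9.05 and 10.2 TPM in 2D and at 12.3 and 12.4 TPM in 3D, and rose by 0.33 on the log2 scale (SE 0.09, adjusted p = 0.0329). That call did not hold with no filter on low values, where the adjusted p was 0.0745, nor with the replicate number as a block, where it was 0.0550. It was also lost without 2D replicate 1 (0.0933) and without either 3D library (0.116 and 0.129).

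Set side by side, Col18a1 rose while Col4a1, Col4a2 and Col4a5 fell, and Col4a6 was not called. The ratio of Col18a1 to Col4a1 was 1.47 and 1.53 in 2D, against 4.38 and 4.18 in 3D. Of the summed TPM of all 48 genes, Col18a1 made up 26.4% ± 0.229 in 2D and 48.6% ± 0.521 in 3D (SD, n = 2 libraries each). The network class made up 37.3% ± 0.390 in 2D and 21.6% ± 0.0799 in 3D. Summed over all 48 genes, 2D libraries held 1420 ± 96.6 TPM and 3D libraries 1168 ± 20.6 TPM, and the 2D mean was 1.22 times the 3D mean. These sums have no test of their own.

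**Figure D3:**
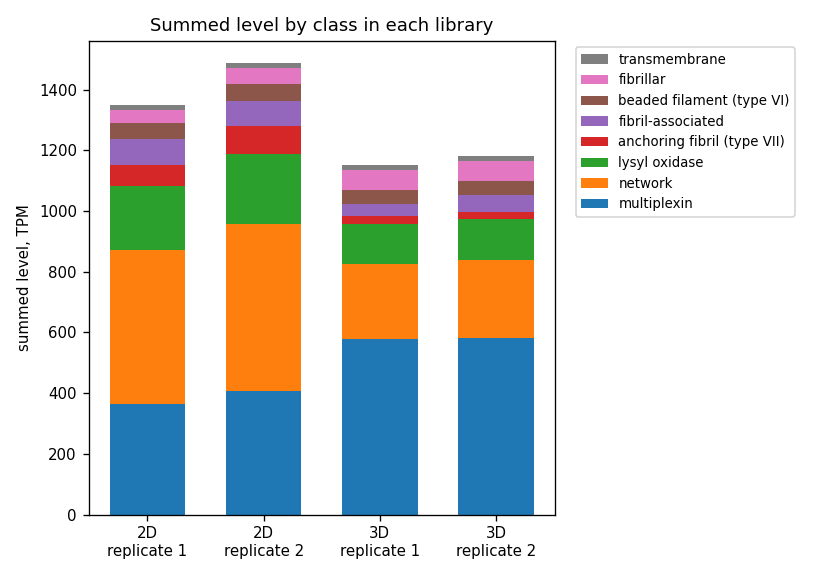
Summed level of each class in each library (y axis, TPM, from 0), stacked, with 1 bar per library. The network part shrinks from about 529 TPM in 2D to 252 TPM in 3D, the multiplexin part grows from 385 to 580 TPM, and the replicate libraries of a culture have nearly the same makeup. The class of other collagens, under 1 TPM in every library, is not drawn.

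Fibrillar collagens were present at low levels, and the members that dominate connective tissue were near 0. Col27a1, a chain of cartilage and other tissues with a shorter helix than the classical fibrillar collagens, was the most abundant in 3D. It was at 15.3 and 17.7 TPM in 2D and at 30.9 and 31.7 TPM in 3D. It rose by 0.89 on the log2 scale (SE 0.09, adjusted p = 0.00207), the largest rise among the members tested. Col2a1, the fibril-forming chain of cartilage, was at 16.9 and 18.7 TPM in 2D and at 20.3 and 19.4 TPM in 3D. Its libraries did not overlap, yet the log2 fold change of 0.15 (SE 0.08) did not pass the threshold, with an adjusted p of 0.179. Col11a2, a chain of the type XI collagen that copolymerises with type II, was at 7.88 and 9.81 TPM in 2D and at 11.7 and 12.7 TPM in 3D. It rose by 0.42 on the log2 scale (SE 0.12, adjusted p = 0.0435). That call too depended on the settings. The adjusted p was 0.0953 with no filter, 0.0539 with a constant prior variance and 0.0712 after correction for GC content and length. Without 2D replicate 1 it was 0.102, and without 3D replicate 1 or 2 it was 0.0998 and 0.165.

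Col5a1, a chain of type V collagen, which is thought to start fibrils, was at 2.42 and 2.91 TPM in 2D and at 2.25 and 2.22 TPM in 3D, with an adjusted p of 0.295. The remaining 6 fibrillar genes were not tested. Col1a1, the main chain of type I collagen, was at 0.434 and 0.595 TPM in 2D and at 0.154 and 0.392 TPM in 3D. Col3a1 was listed at 0.0226 TPM in 2D replicate 1 and at 0 in the other 3 libraries. Col5a2, the usual partner of Col5a1, was listed at 0 in both 2D libraries and at 0.0092 and 0.028 TPM in 3D. Col11a1, the partner of Col11a2, did not pass 0.0152 TPM. Thus types V and XI each had a chain above 1 TPM and a partner chain at or near 0. Col5a3 and Col24a1 did not pass 0.554 and 0.162 TPM. As a class the fibrillar genes summed to 46.9 ± 4.84 TPM in 2D and to 66.4 ± 0.934 TPM in 3D (SD, n = 2 libraries each), 1.42 times as high in 3D. Their share of the members' summed TPM was 3.30% ± 0.117 in 2D and 5.68% ± 0.0202 in 3D. Col27a1, with a mean of 16.5 TPM in 2D and 31.3 TPM in 3D, made the largest part of the difference between the sums. Col2a1 and Col5a1 did not pass the threshold.

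Col7a1 had the largest fall of the collagens tested. It encodes the anchoring fibrils that tie the basement membrane of stratified epithelia to the tissue beneath, and it lies on chromosome 9 at 108953586 to 108984875, plus strand. It was at 69.1 and 91.7 TPM in 2D and at 24.9 and 24.4 TPM in 3D. The 2D libraries differed more from each other than the 3D libraries did, and both lay well above them. The log2 fold change was -1.65 (SE 0.14, adjusted p = 0.00137), and the 2D mean was 3.26 times the 3D mean.

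Type VI collagen is made of Col6a1, Col6a2 and a longer chain such as Col6a3, and it forms beaded filaments. The chains did not move alike. Col6a1 was at 40.7 and 44.8 TPM in 2D and at 39.0 and 39.5 TPM in 3D, and its log2 fold change of -0.12 (SE 0.07) did not pass the threshold, with an adjusted p of 0.198 (0.0256 after correction for GC content and length). Col6a2, its neighbour on chromosome 10, was at 9.35 and 10.1 TPM in 2D and at 5.26 and 5.17 TPM in 3D, and fell by 0.78 on the log2 scale (SE 0.09, adjusted p = 0.00269). Whether the changes of these chains differ was not tested. In the 2D libraries Col6a1 was 4.35 and 4.45 times as high as Col6a2, and in the 3D libraries 7.41 and 7.65 times. Col6a3 was at 2.04 and 2.10 TPM in 2D and at 1.70 and 1.61 TPM in 3D (adjusted p = 0.190, or 0.0457 with a constant prior variance), and the longer chains Col6a4, Col6a5 and Col6a6 stayed under 0.38 TPM.

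The fibril-associated collagens have short helices broken by other domains and sit on the surface of fibrils. Col12a1, known from dense connective tissue and tendon, was at 19.5 and 21.1 TPM in 2D and at 8.75 and 7.52 TPM in 3D. It fell by 1.23 on the log2 scale (SE 0.10, adjusted p = 0.00125). Col9a3, a chain of the type IX collagen of cartilage, was at 55.1 and 45.8 TPM in 2D and at 24.3 and 38.1 TPM in 3D. All its 2D values were above all its 3D values, but the 3D libraries differed widely, and the log2 fold change of -0.70 (SE 0.23) had an adjusted p of 0.0586. Without 3D replicate 2 the log2 fold change was -1.02, with an adjusted p of 0.0155, and after correction for GC content and length it was -0.80, with an adjusted p of 0.0498. The partner chains Col9a1 and Col9a2 did not pass 0.064 and 0.581 TPM. Col16a1 was lower still, at 6.24 and 7.55 TPM in 2D and at 3.34 and 4.03 TPM in 3D, and fell by 0.75 on the log2 scale (SE 0.14, adjusted p = 0.0113), a call lost without 3D replicate 1 (adjusted p = 0.0532). Col20a1 was at 4.95 and 6.54 TPM in 2D and at 4.26 and 4.49 TPM in 3D (adjusted p = 0.131, or 0.0440 without 2D replicate 1), and a gene on the same strand, BX649560.1, overlaps it, so that its reads are uncertain. The class summed to 84.1 ± 3.32 TPM in 2D and to 48.1 ± 9.85 TPM in 3D (SD, n = 2 libraries each).

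Among collagens that span the cell membrane only Col23a1 passed the filter. It was at 15.4 and 16.1 TPM in 2D and at 15.8 and 14.3 TPM in 3D. The cultures overlapped, and the log2 fold change was -0.06 (SE 0.08, adjusted p = 0.574). Col17a1, the hemidesmosome collagen of epithelia, was the most abundant gene that was not tested, at 0.716 and 0.816 TPM in 2D and at 0.829 and 1.31 TPM in 3D. The other membrane collagens, Col13a1 and Col25a1, did not pass 0.0504 TPM. The fibril-associated Col14a1, Col19a1 and Col22a1 did not pass 0.186 TPM. Col26a1 and Col28a1, which belong to none of these classes, reached 0.885 and 0.222 TPM at most. Of the 25 members not tested, 24 had no library over 1 TPM. For 11 members no library passed 0.1 TPM, and 8 were listed at 0 in at least 1 library, where a 0 can be a failed estimate.

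**Figure D4:**
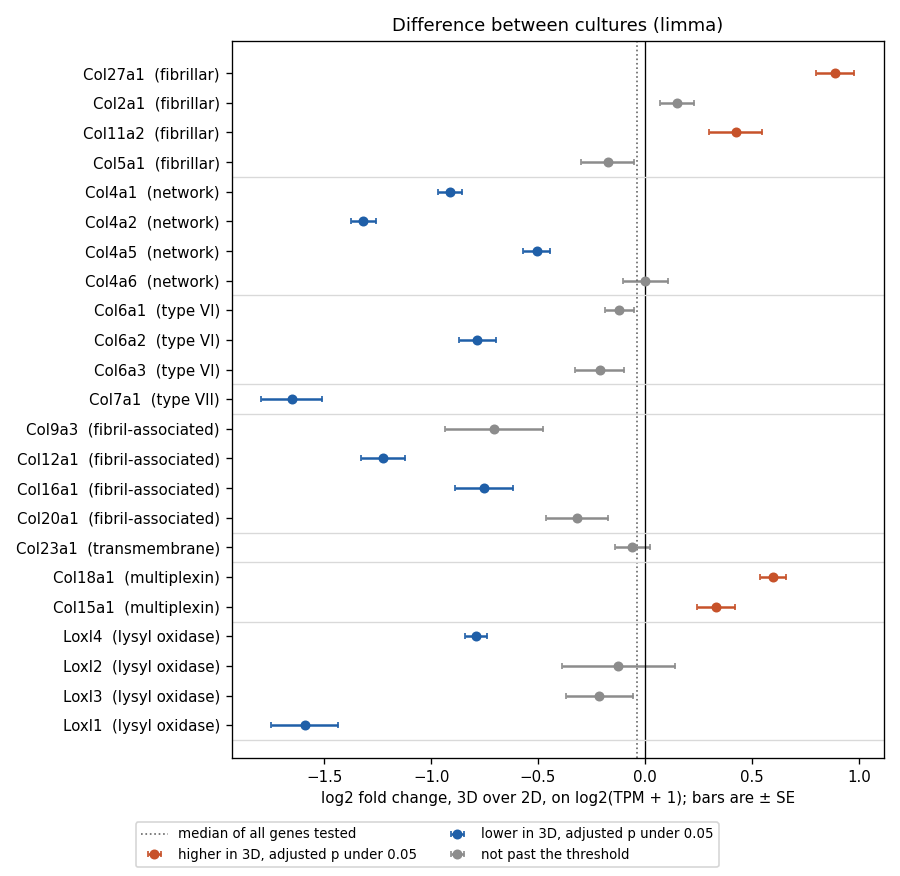
Log2 fold change of the 23 tested genes, 3D over 2D, on log2(TPM + 1) (x axis), with bars of ± SE and colours for the limma call at an adjusted p under 0.05, grouped by class. The dotted line is the median of all 14116 genes tested, -0.04. Genes that rose are Col27a1 and Col11a2 of the fibrillar class and both multiplexins, and genes that fell reach -1.65 for Col7a1.

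The lysyl oxidases were led by Loxl4, and Lox itself, the founding member of the family, was listed at 0.0135 TPM in 3D replicate 1 and at 0 in the other 3 libraries. Loxl4, on chromosome 19 at 42593982 to 42612813, minus strand, was at 193 and 206 TPM in 2D and at 116 and 113 TPM in 3D. It fell by 0.79 on the log2 scale (SE 0.05, adjusted p = 0.000675), and it made up 14.1% ± 0.302 of the members' summed TPM in 2D and 9.84% ± 0.353 in 3D (SD, n = 2 libraries each). Loxl1, which is known for its role in elastic fibres, was at 2.64 and 2.61 TPM in 2D and at 0.327 and 0.0922 TPM in 3D. Its 2D mean was 12.5 times its 3D mean, a ratio that is 8.02 against 3D replicate 1 alone and 28.5 against 3D replicate 2 alone. On the log2(TPM + 1) scale it fell by 1.59 (SE 0.16, adjusted p = 0.00200), and the size rests on the pseudocount, with a log2 fold change of -3.25 at 0.1 and -0.55 at 5.

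Loxl2, which is known to crosslink type IV collagen, varied more between replicates than between cultures. It was at 9.50 and 14.6 TPM in 2D and at 8.79 and 13.1 TPM in 3D, and its log2 fold change was -0.12 (SE 0.26, adjusted p = 0.718). Loxl3 was at 7.20 and 9.91 TPM in 2D and at 7.04 and 7.28 TPM in 3D, with a log2 fold change of -0.21 (SE 0.16, adjusted p = 0.310), and its adjusted p was 0.0434 without 2D replicate 1. Both genes had libraries that overlapped between the cultures. Together the 5 lysyl oxidases held 223 ± 14.8 TPM in 2D against 133 ± 0.934 TPM in 3D (SD, n = 2 libraries each), of which Loxl4 made up 89.6% and 86.2%.

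Collagen chains are hydroxylated and folded in the endoplasmic reticulum, carried out by a dedicated export route, and trimmed at both ends outside the cell. Of 30 genes of collagen maturation and secretion 26 were tested, and 8 rose, 9 fell and 9 did not pass the threshold, with a median log2 fold change of -0.08. These are 17 of 26 past the threshold, where 50.5% of all genes tested passed it, and the count was 9 without 3D replicate 1 and 10 without 3D replicate 2. Colgalt2, among the 8 that rose, passed the filter only through 3D. P4hb, the protein disulfide isomerase that is also a subunit of prolyl 4-hydroxylase, was at 608 and 611 TPM in 2D and at 667 and 688 TPM in 3D, and rose by 0.15 on the log2 scale (SE 0.03, adjusted p = 0.0208). That call was lost with a replicate block (0.0621), a constant prior variance (0.0915), the GC and length correction (0.0764) and without either 3D library (0.0916 and 0.165). Ppib, or cyclophilin B, a proline isomerase, was at 541 and 521 TPM in 2D and at 444 and 445 TPM in 3D, and fell by 0.26 (SE 0.04, adjusted p = 0.00529, or 0.0504 without 3D replicate 1). Mia2, of the export route, was at 149 and 124 TPM in 2D and at 144 and 180 TPM in 3D (adjusted p = 0.211). Serpinh1, the collagen chaperone HSP47, gave 219.5 and 130.0 TPM in 2D and 113 and 221 TPM in 3D. The replicates of each culture were thus further apart than the cultures, and the log2 fold change was -0.09 (SE 0.40, adjusted p = 0.862).

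Genes for trimming the ends of procollagen did not all change alike. Tll1, a protease that removes C-propeptides, was at 19.8 and 21.05 TPM in 2D and at 5.27 and 4.64 TPM in 3D, and fell by 1.85 on the log2 scale (SE 0.09, adjusted p = 0.000456). Pcolce2, an enhancer of that cleavage, was at 10.1 and 11.1 TPM in 2D and at 5.27 and 5.18 TPM in 3D, and fell by 0.90 (SE 0.09, adjusted p = 0.00207). Adamts14, a protease that removes N-propeptides, was at 8.72 and 10.3 TPM in 2D and at 24.6 and 24.0 TPM in 3D, and rose by 1.27 (SE 0.10, adjusted p = 0.00101). The other tested genes of these steps were singled out after their values were seen. On the C-terminal side Bmp1 stood above Tll1, at 85.1 and 81.9 TPM in 2D and at 75.3 and 74.5 TPM in 3D. Bmp1 fell by only 0.15 (SE 0.05, adjusted p = 0.0452), and Pcolce fell by 0.59 (SE 0.05, adjusted p = 0.00106). On the N-terminal side Adamts2 rose by 1.39 (SE 0.18, adjusted p = 0.00404). Tll2 and Adamts3 did not reach 0.5 TPM in any library and were not tested.

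**Figure D5:**
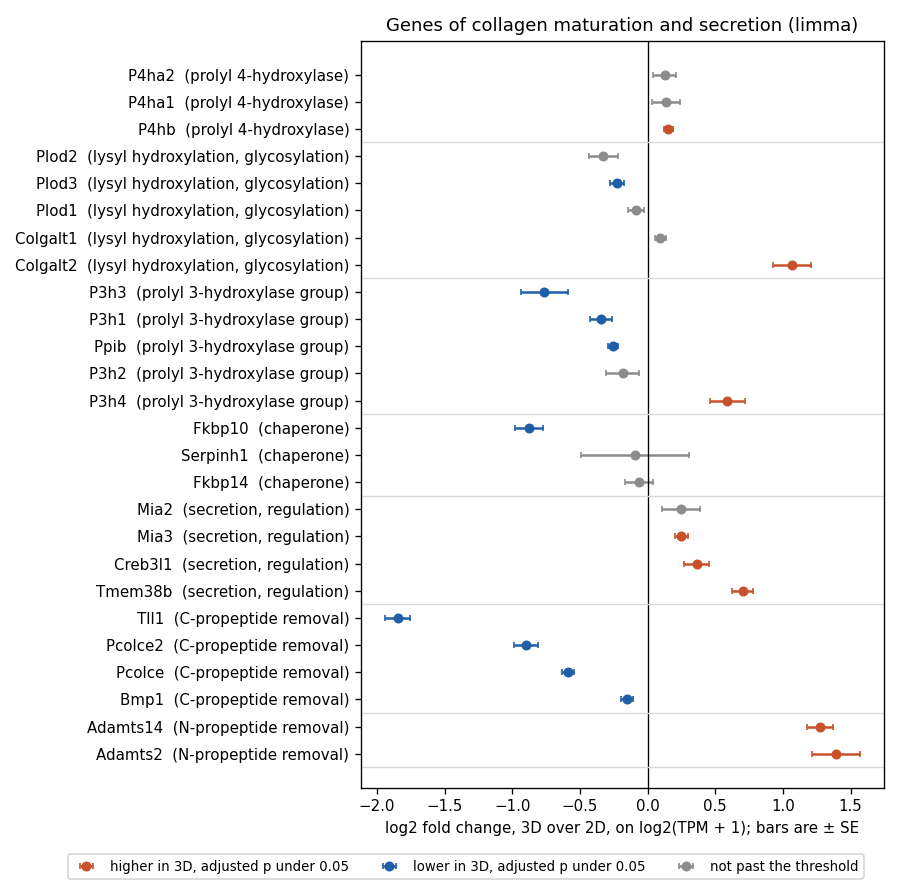
Log2 fold change, 3D over 2D, on log2(TPM + 1) (x axis), with bars of ± SE, for the 26 tested genes of collagen maturation and secretion, grouped by step, with colours for the limma call at an adjusted p under 0.05. The 4 tested genes of C-propeptide removal lie left of 0, down to -1.85 for Tll1, and the 2 tested genes of N-propeptide removal lie at 1.27 and 1.39. The bar of Serpinh1, with an SE of 0.40, is the widest.

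Proteins that bind collagen in the matrix were tested next. Of 16 such genes 7 passed the filter, and 2 rose and 5 fell, with a median log2 fold change of -0.86, where 23.4% of all genes tested rose and 27.1% fell. Of the 5 that fell, Thbs2 and Postn passed the filter only through 2D, and their means in 3D were 0.658 and 0.936 TPM. Sparc, a collagen-binding glycoprotein of basement membranes, was at 393 and 394 TPM in 2D and at 219 and 213 TPM in 3D, and fell by 0.86 on the log2 scale (SE 0.04, adjusted p = 0.000317). Fn1, fibronectin, was at 279 and 346 TPM in 2D and at 149 and 134 TPM in 3D, and fell by 1.13 (SE 0.12, adjusted p = 0.00234). Thbs1, thrombospondin 1, fell from 37.1 ± 2.89 to 11.9 ± 0.606 TPM (SD, n = 2 libraries each). Its log2 fold change was -1.57 (SE 0.08, adjusted p = 0.000504). Matn2, a matrilin, rose from 12.3 ± 1.05 to 20.7 ± 0.340 TPM (SD, n = 2 libraries each), by 0.70 (SE 0.08, adjusted p = 0.00330). The small proteoglycans of fibrillar collagen, Dcn, Lum and Bgn, stayed under 0.29 TPM.

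Elastic fibres share the lysyl oxidases with collagen. Of 16 genes of that list 9 were tested, and 2 rose and 5 fell, with a median log2 fold change of -0.50, beside the same 23.4% and 27.1% of all genes. Fbln1, among the 2 that rose, passed the filter only through 3D. Elastin itself (Eln) and the microfibril gene Fbn1 stayed under 0.28 TPM. The fibulin Fbln2 was at 470.1 and 540.2 TPM in 2D and at 194 and 197 TPM in 3D, and fell by 1.36 (SE 0.07, adjusted p = 0.000517). Efemp1, or fibulin 3, fell by 0.51 (SE 0.05, adjusted p = 0.00150). Of the TGF-beta binding proteins, Ltbp1 was lower in 3D by a log2 fold change of -1.10 (SE 0.06, adjusted p = 0.000479) and Ltbp3 was higher by 0.47 (SE 0.07, adjusted p = 0.00556). The other tested members of that family, singled out after their values were seen, were Ltbp4, which fell by 0.65 (SE 0.16, adjusted p = 0.0256), and Ltbp2, with a log2 fold change of -0.19 (SE 0.13, adjusted p = 0.278).

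Cells bind collagen through integrins that hold the beta 1 chain and through the discoidin domain receptors, which are tyrosine kinases. Of 10 receptor genes 7 were tested, and 2 rose and 2 fell, with a median log2 fold change of 0.13, where 50.5% of all genes passed the threshold. Itgb1, the shared integrin chain, was at 692 and 718 TPM in 2D and at 408 and 399 TPM in 3D, and fell by 0.80 (SE 0.04, adjusted p = 0.000406). Itga2, its collagen-binding partner, was at 109 and 118 TPM in 2D and at 128 and 121 TPM in 3D, and did not pass the threshold (log2 fold change 0.13, SE 0.06, adjusted p = 0.126, or 0.0251 after correction for GC content and length). Ddr1, the receptor of epithelial cells, rose by 0.21 (SE 0.04, adjusted p = 0.0168), from 125 ± 4.53 to 145 ± 0.215 TPM (SD, n = 2 libraries each), a call lost without either 3D library (0.0894 and 0.0868). Ddr2, which is known to bind fibrillar collagen in mesenchymal cells, fell by 0.66 (SE 0.08, adjusted p = 0.00381), from 8.95 ± 0.193 to 5.31 ± 0.0880 TPM (SD, n = 2 libraries each).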

How the data were processed

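RNA-seq libraries of AML12 cells, 2 from 2D and 2 from 3D culture, were made by the authors with a stranded mRNA kit. Per the labels and the study's methods, the tools were cutadapt 1.8.3, then Trimmomatic 0.36 for trimming, HISAT2 2.0.5 for alignment to GRCm38 with the strand set, and StringTie 1.3.4 for Ensembl gene levels. The authors deposited TPM for each library, with replicates kept apart. TPM is a share of a fixed total, so genes that rise push others down, and depth is not kept. The log2 fold change and p-value columns of the authors' DESeq2 comparison were not used.

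Groups were taken from the labels. Each of the 14116 genes whose mean TPM reached 1 was tested by limma 3.58.1 (R 4.3.3) on the log2(TPM + 1) scale (eBayes with trend and robust variance, culture as the only factor, two-sided), with Benjamini-Hochberg adjustment over all of them. The script was tested on simulated data with variances drawn from the prior of the real fit. There 200 of 14116 genes were changed, 70% of 2-fold and 95% of 4-fold changes were recovered, and 6.78% of 177 calls were false. In the real data 50.5% of genes passed the threshold, a far larger share, so these rates need not hold there. Class sums, shares and ratios are values per library, with mean and SD. Gene structure came from GENCODE M21 on GRCm38, where 47 of the 48 genes have the same position as in the table, and promoter windows came from RefSeq.

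The members and the gene lists were chosen with earlier results of these data known. Members that reached a mean of 10 TPM in either culture were named with every library, and lower ones by class. Of each other list, up to 4 genes of highest mean TPM and up to 3 with the largest change among those of at least 10 TPM were named (up to 3 for markers, with those near 0). The settings varied were the pseudocount (0.1 or 5), the filter (none, or a mean of 5 TPM), median centring, quantile normalization, rescaling that leaves out mitochondrial genes and the top 20, a replicate block, a constant prior variance, an adjusted p under 0.01 and leaving out each library. Figures were drawn with matplotlib 3.10.9.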

Additional observations from a re-analysis of the deposited data

How the results depend on the processing

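The count of 13 members past the threshold ranged from 10 to 15 over the alternatives, and stood at 10 without 3D replicate 1, at 10 to 13 over the libraries left out in turn, and at 10 with an adjusted p under 0.01. Where a library is left out, the lone sample of its culture is assumed to vary like the other culture. A correction for GC content and length, chosen after seeing the data, gave 15. With the replicate number as a block, 12 members passed, 3 higher and 9 lower in 3D. The block ended the calls of Col15a1 and P4hb. It changed no other call among the 23 members and the 19 genes of the other lists named by rule. Of the maturation genes, 14 passed with the block in place of 17, with 7 higher and 7 lower in 3D. Marker genes and genes singled out after their values were seen were not checked individually. Deviations of same-numbered libraries had a correlation of -0.0549 over 14116 genes. With 2 libraries per culture this cannot decide whether the numbers pair the libraries, and the labels do not say. The 4 members past a 2-fold change became 2 with a pseudocount of 5. Without a replicate, the count of maturation genes past the threshold, 17, was 9 to 14, with 9 without 3D replicate 1 and 10 without 3D replicate 2, and the median change of the members was -0.42 to -0.15, with -0.42 without 2D replicate 1. Rescaling moved the sums, by construction, to 54.01 and 77.9 TPM (fibrillar, 2D and 3D), 257 and 156 (lysyl oxidases), 443 and 680.5 (multiplexins), 609 and 296 (network) and 1379 and 1214 (all collagens), and left shares and ratios as they were. Signs turned for 4 genes that were not called. With each library left out in turn, Col23a1 ranged from -0.12 to 0.0062 (turned without 3D replicate 2), Loxl2 from -0.41 to 0.16 (0.16 without 2D replicate 2, 0.14 without 3D replicate 1), Col4a6 from -0.060 to 0.063 (-0.060 without 2D replicate 1, -0.029 without 3D replicate 1) and Serpinh1 from -0.57 to 0.38 (0.28 without 2D replicate 1, 0.38 without 3D replicate 1). Col4a6 was also at -0.048 with the GC and length correction. The cause was not tested. Of 318 values of the 23 members under alternatives, 293 kept direction and side of the threshold, 12 lost the call, 7 gained it and 6 turned. No alternative moved the median of all genes by over 0.1. A count test was not run, since the table holds TPM, and no limit of detection can be given without depth.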

Other observations

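Crtap, which forms a complex with the prolyl 3-hydroxylase P3h1 and Ppib, was singled out after its values were seen. It was at 0.348 and 0.439 TPM in 2D and at 0.0715 and 0.0371 TPM in 3D and was not tested, while P3h1 was at 9.38 and 8.99 TPM in 2D and at 7.01 and 7.02 TPM in 3D (limma adjusted p = 0.0227). Fkbp10, a collagen chaperone also singled out after its values were seen, was at 6.85 and 6.36 TPM in 2D and at 2.96 and 3.34 TPM in 3D, a log2 difference of -0.88 (SE 0.11, limma adjusted p = 0.00337). Postn, periostin, a matrix protein that binds collagen and was likewise chosen afterwards, was at 5.66 and 4.97 TPM in 2D and at 0.907 and 0.966 TPM in 3D, a log2 difference of -1.70 (SE 0.12, limma adjusted p = 0.000846). Fbln1 went the other way, from 0.206 and 0.412 TPM in 2D to 3.50 and 3.40 TPM in 3D, a log2 difference of 1.77 (SE 0.14, limma adjusted p = 0.00118), and it passed the filter only through 3D. Itga1, the chain of a collagen-binding integrin, was at 3.53 and 3.42 TPM in 2D and at 9.26 and 8.41 TPM in 3D (log2 difference 1.13, SE 0.10, limma adjusted p = 0.00133). These 2 genes were also chosen after their values were seen.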
